A study of Mus musculus with 2 samples.

Results

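The 9 microRNA (miRNA) genes described here form a pair of genomic clusters that are paralogs of the Mir17 cluster. The Mir106b-25 cluster holds Mir106b, Mir93 and Mir25 in an intron of Mcm7, and the Mir106a-363 cluster holds Mir106a, Mir18b, Mir20b, Mir19b-2, Mir92-2 and Mir363 on the X chromosome. They were chosen by gene symbol in the GENCODE M21 annotation, out of 2202 listed miRNA genes, and all 9 were found. The series sequenced miRNAs in left cerebral cortex, using total RNA of male mice of the B6CASTF1/J hybrid (B6 crossed with CAST) aged 10 days. The single group has no treatment label and holds 2 biological replicates, described as separate numbered males under a shared donor entry, so no conditions were compared and the text describes levels and how far the libraries differed.

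The clusters arose by duplication of an ancestral locus, and each is transcribed as a long precursor from which several hairpins are cut. Each hairpin gives a mature strand of which bases 2 to 8, the seed, pair with target messenger RNAs, so strands with the same seed can repress an overlapping set of targets. Mcm7 encodes a subunit of the replicative DNA helicase and is transcribed in dividing cells, and the miR-17 and miR-106b clusters are known for repressing the cell cycle inhibitor Cdkn1a and for acting in neural progenitor cells. The X-linked cluster is known for low levels in most adult mouse tissues.

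All 9 genes have a mature strand in RefSeq (GRCm38.p6). The strands that carry the known seeds are shown because the seeds sort the members into 4 families and because single base differences decide which reads can be assigned to which gene. Capitals mark the seed. The miR-17 seed, AAAGUGC, is carried by 4 members, by Mir17 and Mir20a of the Mir17 cluster, and by Mir6383 elsewhere:
miR-93-5p: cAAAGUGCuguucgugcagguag
miR-106b-5p: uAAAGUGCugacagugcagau
miR-106a-5p: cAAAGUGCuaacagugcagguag
miR-20b-5p: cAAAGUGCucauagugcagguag
miR-17-5p: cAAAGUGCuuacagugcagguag
miR-20a-5p: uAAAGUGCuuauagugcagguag
With positions counted from 1 at the 5′ end and miR-17-5p as the reference, miR-106a-5p differs at a single base, U10A. miR-20b-5p differs at U10C and C12U, miR-106b-5p at C1U, U10G and G20A over the 21 bases compared, and miR-93-5p at U10G, A11U, C12U and A13C.

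The miR-92 seed, AUUGCAC, is carried by Mir25, Mir92-2 and Mir363, and elsewhere by Mir92-1, Mir92b, Mir32 and Mir367. The strand of Mir92-2 is identical to that of Mir92-1:
miR-25-3p: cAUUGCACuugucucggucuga
miR-363-3p: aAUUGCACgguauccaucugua
miR-92a-3p: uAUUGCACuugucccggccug
miR-92b-3p: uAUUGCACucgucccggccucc
With miR-92a-3p as the reference, miR-25-3p differs at U1C, C14U and C18U, and miR-363-3p differs at 11 of 21 bases, none of them in the seed.

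The remaining members, Mir18b and Mir19b-2, carry the miR-18 seed, AAGGUGC, and the miR-19 seed, GUGCAAA. The strand of Mir19b-2 is identical to that of Mir19b-1, and Mir18b differs from Mir18 at A18U and A20U:
miR-18b-5p: uAAGGUGCaucuagugcuguuag
miR-18a-5p: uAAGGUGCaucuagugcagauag
miR-19b-3p: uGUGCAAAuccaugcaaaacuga

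In the mm10 assembly the 3 hairpins of the first cluster lie on the minus strand of chromosome 5, within intron 13 of the principal Mcm7 transcript, which has 15 exons and an intron of 748 bases. In transcript order they are Mir106b at chr5:138165737-138165818, Mir93 at chr5:138165523-138165610 and Mir25 at chr5:138165321-138165404, separated by 126 and 118 bases. Mir93 and Mir25 also lie in an exon of a retained-intron transcript of Mcm7. The Mcm7 messenger RNA itself was not measured in these libraries. The hairpins are printed with both annotated mature strands in capitals, since these strands are what the short inserts represent:
Mir106b: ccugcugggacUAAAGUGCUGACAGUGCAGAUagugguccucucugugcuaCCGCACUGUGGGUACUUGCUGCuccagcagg
Mir93: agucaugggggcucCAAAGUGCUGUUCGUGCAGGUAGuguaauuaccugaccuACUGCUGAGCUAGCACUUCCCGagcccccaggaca
Mir25: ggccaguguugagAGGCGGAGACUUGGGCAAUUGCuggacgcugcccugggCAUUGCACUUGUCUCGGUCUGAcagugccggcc
The GC content of these hairpins was 55.7% to 63.1%, above every hairpin of the X-linked cluster (38.1% to 47.3%) and of the Mir17 cluster (43.7% to 47.5%).

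The 6 X-linked hairpins span 875 bases of the minus strand of chromosome X, from Mir106a at chrX:52742503-52742567 to Mir363 at chrX:52741693-52741767. In transcript order they are Mir106a, Mir18b, Mir20b, Mir19b-2, Mir92-2 and Mir363, and those of the Mir17 cluster on chromosome 14 are Mir17, Mir18, Mir19a, Mir20a, Mir19b-1 and Mir92-1. Mir106a overlaps the noncoding gene Kis2 by up to 5 exonic bases, and no other annotated gene apart from miRNA genes overlaps the other 5 hairpins. The Mir17 hairpins lie within an exon of Mir17hg.

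**Figure D1:**
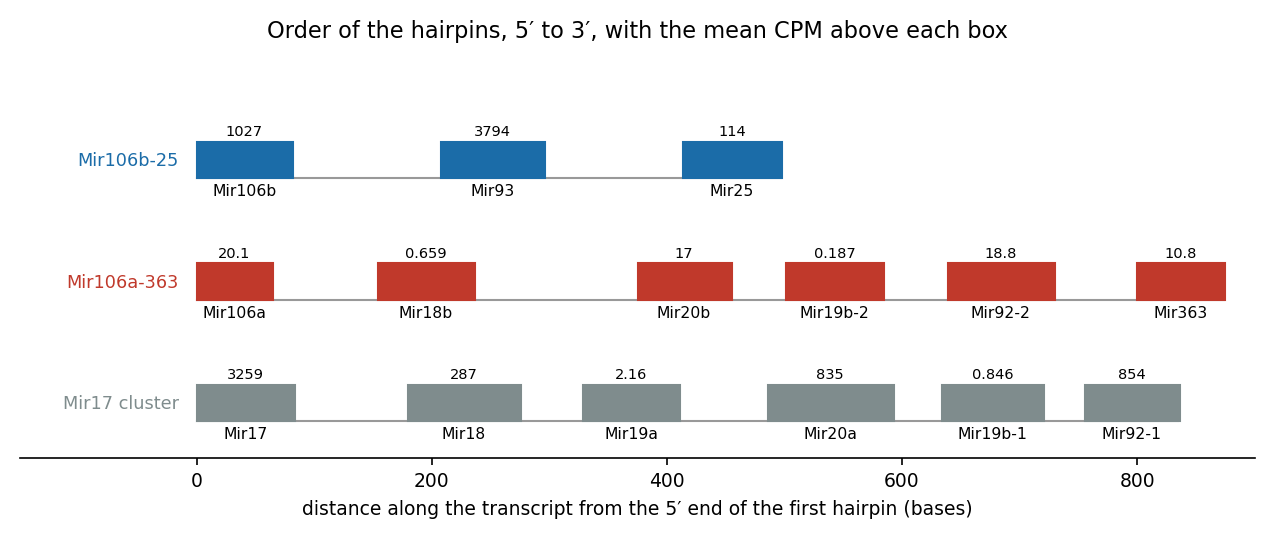
Order of the hairpins along each transcript. The horizontal axis is the distance in bases from the 5′ end of the first hairpin, each box is a hairpin drawn to scale, and the number above it is the mean CPM of the 2 libraries, from 3794 for Mir93 to 0.187 for Mir19b-2.

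A level here is the number of reads on the strand of the gene, summed over both arms of its hairpin, per 1000000 reads assigned to any miRNA gene (CPM). Replicate 1 held 2677910 assigned reads and replicate 2 held 1750076, so 3 reads equal 1.12 and 1.71 CPM, and multimapped reads, which made up 51.2% and 49.2% of those mapped, are in no gene's count. Detected means that each library had at least 2 CPM. As a check of the labelled tissue, the neuronal Mir128-1, Mir137 and Mir128-2 averaged 13876, 9938 and 4461 CPM. The rest of the neuronal list was low. The 3 copies of the neuronal miR-124, which share sequence, averaged 1.14 to 2.44 CPM, and the Mir9 genes 2.54 to 118 CPM. The liver gene Mir122, at 50.4 CPM, stood above most of these low genes, whose counts leave out any multimapped reads. The values therefore do not compare Mir122 with the whole of miR-124 or miR-9. Of the list of pluripotency genes, 1 of 9 was detected, against 20.1% of all 2202 listed genes. In that list 4 genes had no read in either library, while 744 of the 2202 genes had at least 1 read. These counts do not set the list apart from all genes and are no check of the tissue. In bulk tissue, fewer cells of a type and less RNA per cell cannot be told apart.

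The Mcm7-hosted cluster was abundant and the X-linked cluster was low beside it. Of the 6 X-linked genes 4 were detected, against 20.1% of all listed genes. Mir106b, Mir93 and Mir25 together held 0.479% of assigned reads in replicate 1 (95% exact binomial interval 0.471% to 0.488%). In replicate 2 they held 0.508% (0.497% to 0.518%), which gives 0.494% ± 0.0199 (SD, n = 2). The 6 X-linked genes together held 183 and 117 reads, or 0.00683% and 0.00669%, a mean of 0.00676% ± 0.000105 (SD, n = 2). The first cluster thus had 70.2 times the reads of the second in replicate 1 (interval 60.6 to 81.6) and 75.9 times in replicate 2 (63.3 to 91.9). Per base of hairpin the mean ratio was 64.5. These intervals cover counting error only, and with a single group the SD measures the spread between these libraries, which may be biological or technical. Reads of exactly miR-92a-3p and miR-19b-3p, which Mir92-2 and Mir19b-2 share with the Mir17 cluster, are left out of the X-linked sum. With such reads counted the ratios of the first cluster to the second could be lower.

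Mir93 was the most abundant of the 9 genes. It had 9935 reads or 3710 CPM in replicate 1 and 6786 reads or 3878 CPM in replicate 2, a mean of 3794 ± 118 CPM (SD, n = 2) and rank 53 of the 2202 listed genes. Its nearest neighbours in mean level were Mir143 and Mir676 just above, at 3847 and 3835 CPM, and Mir328 and Mir323 just below, at 3790 and 3700 CPM. All 4 lay within 118 CPM, the SD of Mir93, of its mean, and with 2 libraries no likeness of pattern beyond level could be measured.

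Mir106b, the first hairpin of the trio in transcript order, has the same seed as Mir93. It had 2592 reads or 968 CPM in replicate 1 and 1902 reads or 1087 CPM in replicate 2, a mean of 1027 ± 84.1 CPM (SD, n = 2). Mir25, the only hairpin of the trio with the miR-92 seed, had 313 and 195 reads, or 117 and 111 CPM, a mean of 114 ± 3.86 CPM. The 3 genes therefore kept the same order in both libraries with no overlap between them. Mir93 had 3.83 times the reads of Mir106b in replicate 1 (interval 3.67 to 4.00) and 3.57 times in replicate 2 (3.39 to 3.76). Mir93 had 31.7 times the reads of Mir25 in replicate 1 (28.4 to 35.6) and 34.8 times in replicate 2 (30.2 to 40.3).

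**Figure D2:**
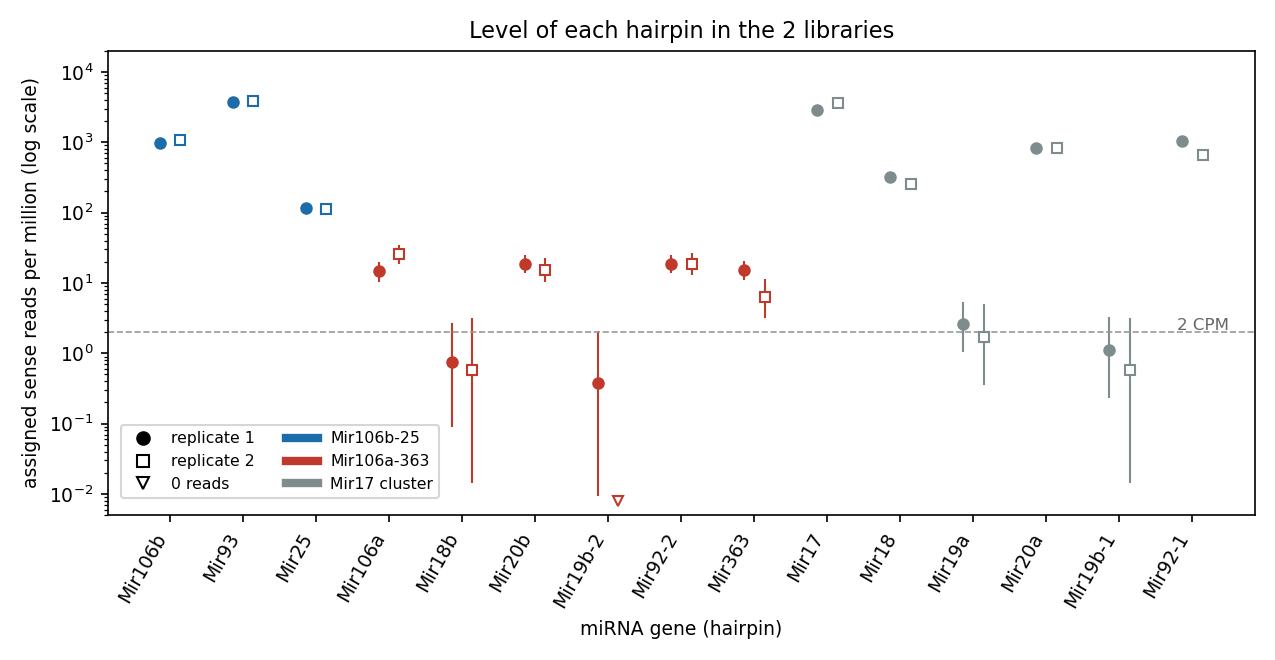
Level of each hairpin. The vertical axis is CPM of sense reads on a log scale, filled circles are replicate 1, open squares replicate 2, bars are 95% exact binomial intervals of counting error, the triangle is a count of 0, and the dashed line is 2 CPM. Mir93 stands near 3794 CPM and the 4 detected X-linked genes stand between 10.8 and 20.1 CPM in mean.

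No copy of the Mcm7-hosted strands was found among the other listed hairpins. The strands miR-25-3p, miR-93-5p and miR-106b-5p each occurred exactly in their own hairpin alone, and the closest other hairpin differed from each at 3 bases. The longest stretch that a hairpin of the trio shared with another listed hairpin was 13 or 14 bases. Copies outside the listed hairpins were not analysed here. No read was counted on the opposite strand of any of the 9 genes in either library, and the sense and unstranded counts of each member were equal.

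Among the X-linked genes, 4 of 6 were detected, against 20.1% of all listed genes. The levels of these 4 genes were close to each other, at ranks from 300 for Mir106a to 331 for Mir363. Mir106a had 39 reads or 14.6 CPM in replicate 1 and 45 reads or 25.7 CPM in replicate 2, a mean of 20.1 ± 7.88 CPM (SD, n = 2). Mir92-2 had 50 and 33 reads, or 18.7 and 18.9 CPM, a mean of 18.8 ± 0.131 CPM. Mir20b had 50 and 27 reads, or 18.7 and 15.4 CPM, a mean of 17.05 ± 2.29 CPM. The ranges of Mir106a and Mir92-2 overlap, as do those of Mir106a and Mir20b, so the order of these 3 genes is not resolved beyond their spread. The count of Mir92-2 also leaves out reads of exactly miR-92a-3p.

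Mir363, the last hairpin of the transcript, had 41 reads or 15.3 CPM in replicate 1 and 11 reads or 6.29 CPM in replicate 2, a mean of 10.8 ± 6.38 CPM. Its range overlapped that of Mir106a and lay below those of Mir92-2 and Mir20b, although in replicate 1 the counting intervals of all 4 genes overlapped. The remaining members, Mir18b and Mir19b-2, were not detected. Mir18b had 2 reads and 1 read, or 0.747 and 0.571 CPM. Mir19b-2 had 1 read in replicate 1 and 0 in replicate 2, where 3 reads, the limit taken for a count of 0, equal 1.71 CPM and the exact 95% interval reaches 2.11 CPM. These 2 genes cannot be ordered from so few reads, and the count of Mir19b-2 also leaves out reads of exactly miR-19b-3p.

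Some X-linked counts are bounded by the sequences they share with the Mir17 cluster. The hairpins of Mir92-2 and Mir92-1 have 22 bases in common and those of Mir19b-2 and Mir19b-1 have 25, which cover the whole of miR-92a-3p and miR-19b-3p. A read of exactly these strands matches both hairpins and cannot be assigned to either, so the counts of Mir92-2 and Mir19b-2 leave such reads out. miR-106a-5p and miR-17-5p differ at 1 base, and Mir17 had 199 times the reads of Mir106a in replicate 1 (interval 146 to 281) and 141 times in replicate 2 (105 to 193). Whether reads of miR-17-5p with an error at that base are among the 39 and 45 reads of Mir106a was not tested. Mir363 had no such neighbour, since the closest listed hairpin differed from miR-363-3p at 8 bases.

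The genes of the Mir17 cluster, the paralog on chromosome 14 known for driving proliferation, reached levels like those of the Mcm7-hosted cluster. Mir17 averaged 3259 ± 504 CPM (SD, n = 2), Mir92-1 854 ± 263 CPM, Mir20a 835 ± 5.76 CPM and Mir18 287 ± 44.8 CPM, while Mir19a and Mir19b-1, at 2.16 and 0.846 CPM, were not detected. The hairpin of the Mir17 cluster most similar to Mir106b, Mir93, Mir106a and Mir20b was in each case Mir17, with 59.1% to 70.1% of aligned bases identical. Mir93 had 1.28 times the reads of Mir17 in replicate 1 (1.24 to 1.32) and 1.07 times in replicate 2 (1.04 to 1.11).

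Summed over hairpins, the Mir106b-25 reads were 0.941 times those of the Mir17 cluster in replicate 1 (interval 0.918 to 0.964). In replicate 2 they were 0.943 times (0.916 to 0.971), so the libraries gave the same ratio within counting error. Reads of exactly miR-92a-3p and miR-19b-3p are left out of the Mir17 sum, while the Mir106b-25 strands have no copy among the listed hairpins. With those reads counted the ratio could be lower. Mir20b, Mir92-2 and Mir18b stood far below their counterparts in both libraries. Mir20a had 44.5 and 54.4 times the reads of Mir20b, and Mir92-1 had 55.7 and 35.4 times those of Mir92-2, where the strand that both genes share is left out. Mir18 had 852 and 446 reads against 2 and 1 of Mir18b, ratios of 426 (interval 118 to 3523) and 446 (79.6 to 17655). Mir19b-1 had 3 reads and 1 read against 1 and 0 of Mir19b-2, too few to tell these genes apart.

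Summed by seed, the Mcm7-hosted pair Mir93 and Mir106b supplied more of the assigned reads of the miR-17 seed family than Mir17 and Mir20a did in both libraries. The family has 7 genes and held 8953 ± 718 CPM (SD, n = 2). Family counts here and below cover both arms of each hairpin. Reads of the arm without the seed are therefore included, and the share of the seed strands alone was not measured. Mir93 made up 43.9% of its reads in replicate 1 and 41.0% in replicate 2, and Mir106b 11.5% in both. Together they gave 55.4% (interval 54.7% to 56.0%) and 52.5% (51.7% to 53.2%). Mir17 and Mir20a gave 44.2% and 47.1%, and Mir106a and Mir20b gave 0.394% and 0.435%. The remaining gene, Mir6383, had 0 reads in both libraries.

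The miR-92 seed family, at 4142 ± 644 CPM (SD, n = 2) over 7 genes, had another make-up. Mir92b, a gene outside the 3 clusters on chromosome 3, held 73.1% of the reads in replicate 1 and 77.1% in replicate 2, and Mir92-1 held 22.6% and 18.1%. Mir25 held 2.54% (interval 2.27% to 2.84%) and 3.02% (2.62% to 3.47%), and Mir92-2 and Mir363 together held 0.739% and 0.682%. Mir32 held 1.01% and 1.12%, and Mir367, a gene of pluripotent cells, had 0 reads. The Mcm7-hosted cluster thus supplied most of the assigned reads of the miR-17 seed family and a few percent of those of the miR-92 seed family. Reads of exactly miR-92a-3p match both of its genes and are not counted, so the reads shown for these genes are not exact copies of that strand. The combined share of Mir92-1 and Mir92-2 in the reads of these hairpins is a lower limit.

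**Figure D3:**
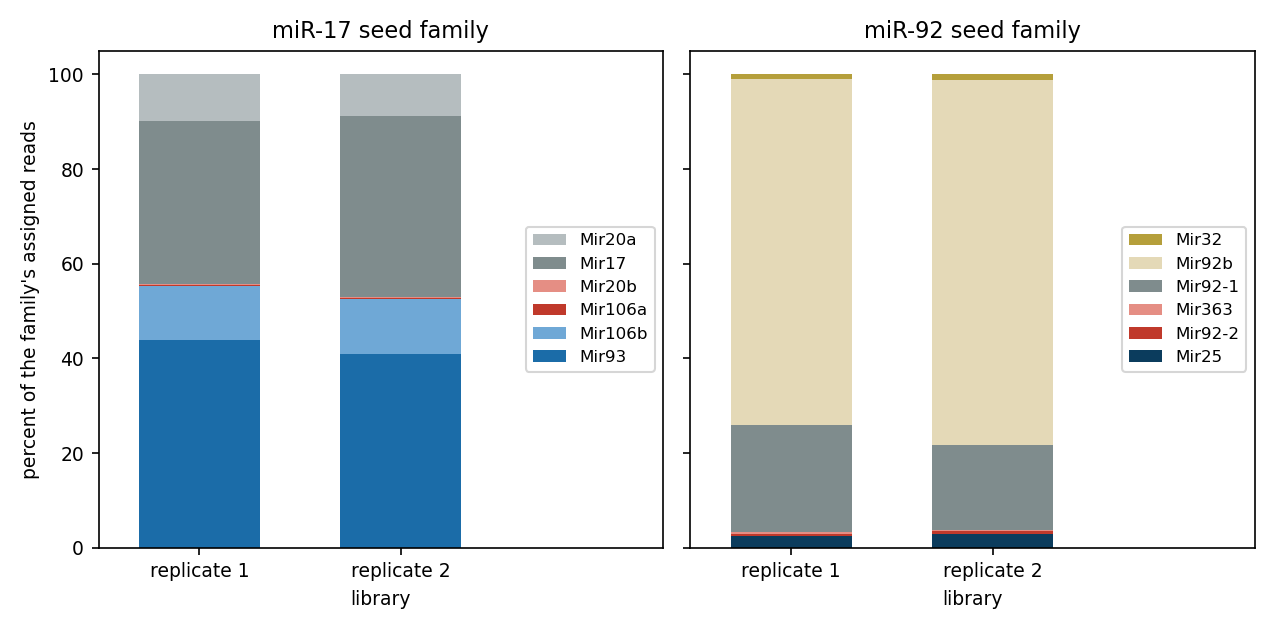
Make-up of the miR-17 and miR-92 seed families. The vertical axis is the percent of the family's assigned reads, with both arms of each hairpin included, and each bar is a library. Blue, red and grey mark genes of the Mir106b-25, Mir106a-363 and Mir17 clusters, with Mir92b and Mir32 in shades of yellow. Mir93 and Mir106b fill 55.4% and 52.5% of the first family, and Mir25 fills 2.54% and 3.02% of the second.

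Few assigned reads fell to the miR-18 and miR-19 families, and the miR-19 family could be counted only in part. Mir18 held 99.8% of the reads of the miR-18 family in both libraries. The miR-19 family, whose strand miR-19b-3p has 2 genes, held 11 reads in replicate 1 and 4 in replicate 2, of which Mir19b-2 gave 1 and 0. Reads of exactly miR-19b-3p match both genes and are not counted, so these totals are lower limits and do not show how abundant the family was.

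The make-up of the Mcm7-hosted cluster was close in the 2 libraries, while in the X-linked cluster the shares of Mir106a and Mir363 differed. Mir93 made up 77.4% of its cluster's reads in replicate 1 (interval 76.6% to 78.1%) and 76.4% in replicate 2 (75.5% to 77.3%), and Mir25 made up 2.44% (2.18% to 2.72%) and 2.20% (1.90% to 2.52%). In the X-linked cluster Mir106a made up 21.3% (15.6% to 28.0%) and 38.5% (29.6% to 47.9%), while Mir363 made up 22.4% (16.6% to 29.1%) and 9.40% (4.79% to 16.2%). For both of these genes the counting intervals of the libraries do not overlap. Those of Mir92-2, at 27.3% and 28.2%, and of Mir20b, at 27.3% and 23.1%, do overlap. The summed level of the X-linked cluster, 68.3 and 66.9 CPM, differed by less than counting error. In the Mir17 cluster the share of Mir17 was 57.0% (56.1% to 57.8%) and 67.2% (66.2% to 68.2%). That of Mir92-1 was 20.4% (19.7% to 21.1%) and 12.4% (11.8% to 13.1%), and the intervals of these genes do not overlap either. Differences beyond counting error were common. Of all 542 genes tested between the libraries, 42.3% had an adjusted p below 0.05 (Fisher's exact test, described below).

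**Figure D4:**
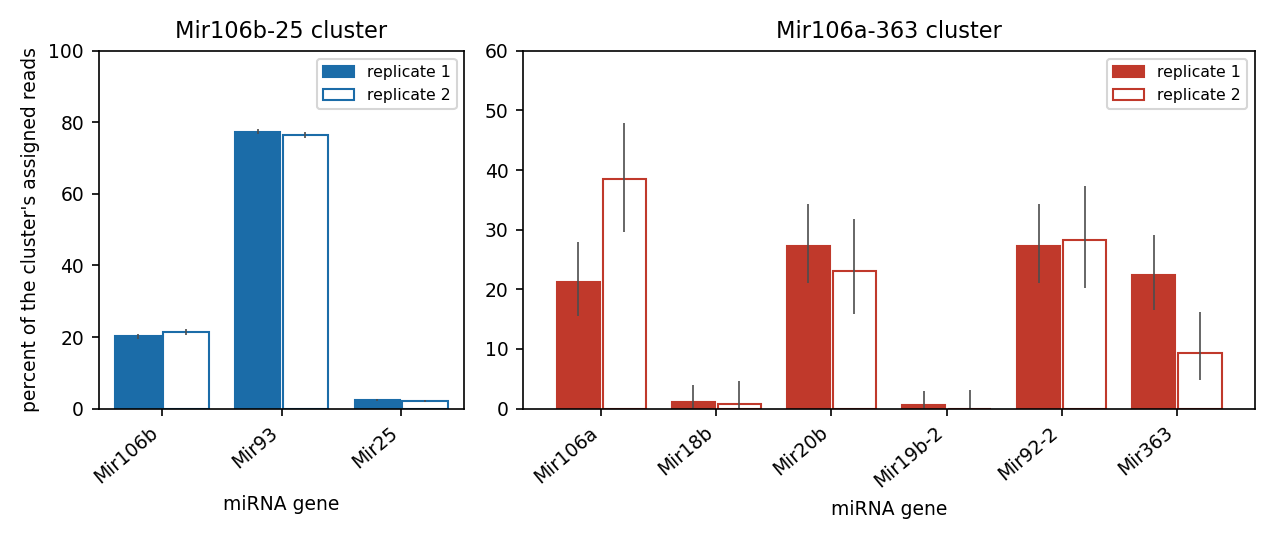
Share of each hairpin in its cluster. The vertical axis is the percent of the cluster's assigned reads, filled bars are replicate 1, open bars replicate 2, and lines are 95% exact binomial intervals. Mir93 takes 77.4% and 76.4% of its cluster, and the bars of Mir106a and Mir363 differ between the libraries in opposite directions.

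The libraries were compared gene by gene with Fisher's exact test (two-sided, Benjamini-Hochberg adjusted over all 542 genes at 2 CPM or more in either library), which compares these libraries and not conditions. Calls required an adjusted p below 0.05 and an absolute log2 ratio, replicate 2 over replicate 1, of at least 1. Of the 9 members 7 were tested and 1, Mir363, was called, against 12.0% of all tested genes, and against 6.27% for genes lower in replicate 2. The median absolute log2 ratio of the 7 was 0.17, and that of all tested genes 0.46. The latter includes 155 genes averaging 2 to 10 CPM, whose median was 0.67, and no tested member lay in that range.

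Mir363 had a log2 ratio of -1.24 (counting interval -2.39 to -0.30, adjusted p = 0.0169 by Fisher's exact test), from 41 and 11 reads. Among the 119 tested genes averaging 10 to 100 CPM, 103 had a smaller absolute log2 ratio, and 23 (19.3%) were called. Mir106a, at 0.82 (0.17 to 1.48, adjusted p = 0.0250 by the same exact test), missed the minimum size, and 90 of those 119 genes had a smaller ratio. Mir20b and Mir92-2 had ratios of -0.26 and 0.02, both with intervals that include 0.

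Mir93 and Mir106b had log2 ratios of 0.06 (interval 0.02 to 0.11, adjusted p = 0.0131 by Fisher's exact test) and 0.17 (0.08 to 0.25, adjusted p = 0.000449). Both pass the p threshold alone, as do 4 of the 7 tested members and 42.3% of all tested genes. Of the 105 genes above 1000 CPM, whose median absolute ratio was 0.22, 16 had a smaller one than Mir93 and 40 a smaller one than Mir106b. With TMM totals, with DESeq2 size factors and without the 10 most abundant genes the ratio of Mir93 was 0.12, 0.13 and 0.15, and that of Mir106b was 0.22, 0.24 and 0.25. Mir25 had a ratio of -0.07 (-0.33 to 0.19), whose sign turned under 2 other scalings of the libraries.

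Of the 3 markers of red blood cells, Mir451a and Mir144 were higher in replicate 1, as Mir363 was, and Mir486 was at a like level in both libraries. The erythroid list, with 3 of 3 genes detected, summed to 814 CPM in replicate 1 and 56.6 CPM in replicate 2, a 14.4-fold difference. Within it Mir451a stood at 737 and 20.6 CPM, Mir144 at 52.3 and 10.3 CPM, and Mir486 at 25.4 and 25.7 CPM. The leukocyte list, with 5 of 5 detected, summed to 1716 and 1671 CPM, and the endothelial and mural list, with 3 of 3 detected, to 13639 and 15214 CPM. The epithelial and choroid plexus list, with 6 of 6 detected, summed to 861 and 1258 CPM. The neuronal list, with 5 of 9 detected, summed to 35888 and 20985 CPM. Unmapped reads were 25.5% and 42.4% of the libraries. The part of any of these in the difference of Mir363 was not tested, and with 1 library per animal, animal and library cannot be told apart.

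**Figure D5:**
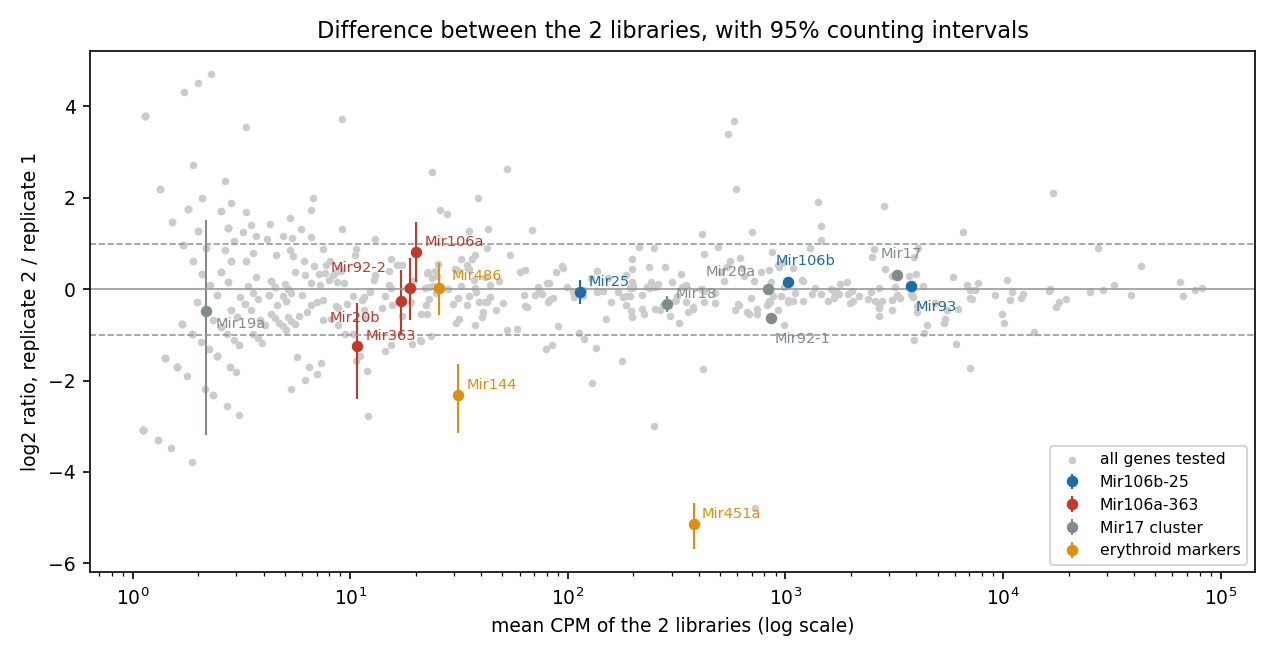
Difference between the libraries for each tested gene. The horizontal axis is mean CPM on a log scale, the vertical axis is the log2 ratio of replicate 2 over replicate 1, bars are 95% counting intervals, grey points are all 542 tested genes, and dashed lines mark a ratio of 1 in size. Mir363, at -1.24, is the member beyond the dashed lines, and Mir451a, at -5.14, is the lowest of the erythroid markers.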

How the data were processed

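Small RNA libraries with a labelled size range below 30 were made from total RNA of 2 cortex samples. For each listed miRNA gene the authors deposited raw counts in 3 columns, taken here as unstranded, sense and antisense from their values. The assembly was mm10 and the annotation GENCODE M21, per the text files that accompany them. Not given in the sources used here are the aligner, the counter and the trimming. The sense counts were divided by their sum over the 2202 rows that name a gene, leaving out 4 rows that name none (unmapped reads, 25.5% and 42.4% of all reads; multimapped reads, 38.2% and 28.3%; reads outside the listed genes, 6.93% and 5.74%; and ambiguous reads, which are 0 in the sense column). CAST alleles were not considered.

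All identifiers matched M21, and coordinates and hairpins of the 15 genes of the 3 clusters were the same in M21 and RefSeq. Log2 ratios carry 0.5 added reads. Intervals are 95% exact Clopper-Pearson and cover counting error only, since reads copied by PCR are not independent molecules. Hairpins were aligned globally with Biopython 1.88. The test was run on simulated data with known changes first. Those data held counting error only, so they cannot show how the test behaves with spread between animals. edgeR 4.0.16 (TMM) and DESeq2 1.42.0 gave alternative scalings only, in R 4.3.3. Python 3.11.15, scipy 1.17.1 and pandas 2.3.3 did the rest.

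The members and lists were chosen with earlier results of these data known. Named were all members, the Mir17 cluster, genes sharing a member's seed, marker lists and the 2 genes on either side of the highest member in rank. The liver gene Mir122 averaged 50.4 CPM.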

Additional observations from a re-analysis of the deposited data

How the results depend on the processing

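No paired analysis was possible because there is a single group of 2 libraries. The share of assigned reads of the Mir106b-25 cluster, 0.494%, was 0.528% with the unstranded counts, 0.220% with multimapped reads in the total and 0.961% without the 10 most abundant genes, and that of the Mir106a-363 cluster, 0.00676%, was 0.00723%, 0.00301% and 0.0131%, since only the total changes. Per hairpin base, an alternative added after seeing the data, the ratios were 3.45 for Mir93 to Mir106b, 0.945 for Mir106b-25 to the Mir17 cluster and 64.5 for Mir106b-25 to Mir106a-363. With an adjusted p under 0.05 alone, 229 genes passed in place of 65, 94 higher and 135 lower in replicate 2 in place of 31 and 34, and 4 members in place of 1. Mir363 was called in each alternative run, with log2 ratios of -1.25 to -1.11. The log2 ratio of Mir25 turned positive with DESeq2 size factors (0.00064) and without the 10 most abundant genes (0.0151). The single libraries gave 0.479% to 0.508% and 0.00669% to 0.00683% for the cluster shares. The counts of the X-linked genes, 0 to 50 reads, limit what can be resolved among them.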
